A study of Mus musculus with 2 samples.

Results

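The Id genes Id1, Id2, Id3 and Id4 and the inhibitory Smads Smad6 and Smad7 were followed in single-cell RNA sequencing of the mouse genital tubercle, the embryonic outgrowth from which the penis or the clitoris forms. The 6 genes were chosen by symbol as a family of bone morphogenetic protein (BMP) response genes, out of 31053 genes in the count matrices, and all 6 were found. There was 1 library per sex, male and female, and each came from the pooled tubercles of 3 wild-type C57BL/6 embryos at embryonic day 14.5 (Theiler stage 22) that came from 2 litters. Embryos were kept in medium on ice for 2 hours while sex was determined by genotyping, and the tubercles of both sexes were then digested with collagenase. Differences between embryos, or between litters, cannot be told from pooled libraries.

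BMP ligands bind paired type I and type II serine/threonine kinase receptors, which phosphorylate SMAD1, SMAD5 and SMAD9. These join SMAD4 and enter the nucleus, where Id genes are among the first to be transcribed. ID proteins have a helix-loop-helix but no DNA-binding basic region, so they pair with E proteins such as TCF3, TCF4 and TCF12 and keep them from DNA. SMAD6 and SMAD7 act as feedback inhibitors: SMAD6 mainly on BMP receptors and SMAD1, SMAD7 on the receptors of both BMP and TGF-beta. In the genital tubercle, Bmp4 encodes a ligand made by the mesenchyme, and Grem1 encodes gremlin, a secreted protein that binds BMP4 and keeps it from its receptors.

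A barcode entered with 2000 or more unique molecular identifiers (UMIs), 500 or more genes and no more than 10% of its UMIs from mitochondrial genes. Such barcodes numbered 17254 for males and 18711 for females. Once the barcodes most like doublets were taken out, 14872 male and 15910 female cells remained. They had medians of 4892.5 and 4887 UMIs, and 65 of the kept barcodes occurred in both libraries. A level is the sum of a gene's UMIs over a class, per 1000000 UMIs of that class (CPM), with exact 95% Poisson intervals. With 1 library per sex and no replicates, no difference was tested, and every interval covers counting error only. Free RNA was measured in barcodes of 10 to 100 UMIs, and held Id1 at 469 CPM (male) and 525 CPM (female), Id2 at 477 and 563, Id3 at 708 and 786, and Smad7 at 109 and 81.8. Id4 stood at 22.9 and 29.9 CPM in free RNA and Smad6 at 31.6 and 17.96. The members are thus common in free RNA, and low levels in the small classes may hold some of it. How much was not tested.

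Promoters of the members are shown first. The 250 bases before the transcription start given by RefSeq on the same build (GRCm38.p6) were at hand for 4 of the 6 (Id2, Id3, Id4 and Smad6). They were searched for the GC-rich motif GGCGCC bound by SMAD1 and SMAD5, the half-site CAGAC, the palindrome GTCTAGAC and the TATA box TATAAA, on both strands. They are shown because the members' levels varied together over much of the mesenchyme, and capitals mark GGCGCC. The Id2 stretch runs over chr12:25096254-25096342 on the minus strand, inside an intron of the longest GENCODE transcript, and is the stretch of the window that overlaps no exon. The Id4 stretch is chr13:48260866-48261115 on the plus strand, and that of Smad6 chr9:64022060-64022309 on the minus strand.
Id2: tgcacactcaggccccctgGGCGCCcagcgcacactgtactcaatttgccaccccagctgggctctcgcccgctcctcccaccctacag
Id4: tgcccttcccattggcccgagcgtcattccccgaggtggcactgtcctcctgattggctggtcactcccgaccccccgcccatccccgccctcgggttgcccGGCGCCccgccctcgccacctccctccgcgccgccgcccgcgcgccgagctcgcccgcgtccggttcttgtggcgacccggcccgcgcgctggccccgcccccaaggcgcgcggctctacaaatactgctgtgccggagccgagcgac
Smad6: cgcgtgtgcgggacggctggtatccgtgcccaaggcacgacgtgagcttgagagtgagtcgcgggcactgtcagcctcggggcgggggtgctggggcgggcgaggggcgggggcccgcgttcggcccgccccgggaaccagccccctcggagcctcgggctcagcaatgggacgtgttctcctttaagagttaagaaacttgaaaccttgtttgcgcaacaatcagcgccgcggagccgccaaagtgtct
GGCGCC began 231 bases before the RefSeq start in Id2 and 148 bases before it in Id4, and was not among the letters of the Smad6 window. It occurs in 9.586% of all 32851 promoter windows of this length. CAGAC was found at 167 and, on the other strand, 68 bases before the start of Id3, whose window lies in an annotated exon and is not printed, and this half-site occurs in 42.194% of windows. GTCTAGAC (0.167% of windows) and TATAAA (12.368%) were in none of the 4 windows. A match is a run of letters and was not tested as a binding site.

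All 6 genes are protein coding, and in the GENCODE M21 annotation of the mm10 build they lie at chr2:152736251-152737410 (Id1, plus strand), chr12:25093799-25097140 (Id2, minus), chr4:136143497-136145755 (Id3, plus), chr13:48261228-48266026 (Id4, plus), chr9:63953076-64022059 (Smad6, minus) and chr18:75367529-75395935 (Smad7, plus).

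The cells fell into 27 clusters, made without the members, Bmp4 and Grem1. Mesenchyme-like cells made up 19 clusters with 14186 male and 15386 female cells, and were named from a list of 7 mesenchyme markers. Small classes, named from markers, were endothelium-like (134 male and 79 female cells), epithelium-like (142 and 87), erythroid-like (125 and 212), immune-like (64 and 41), glia- and neural crest-like (32 and 51) and skeletal muscle-like cells (19 and 54). A smooth muscle-like cluster held 170 male cells and no female cell, so it cannot be told apart from a property of the male library.

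In the mesenchyme-like cells, Id3 was read at 870 CPM in male and 796 CPM in female cells, Id1 at 582 and 558 CPM, and Id2 at 573 and 605 CPM. The negative feedback gene Smad7 had 179 CPM in male and 141 CPM in female mesenchyme. Id4 was at 21.3 CPM in both libraries and Smad6 at 21.6 and 21.3 CPM, near their free-RNA levels. Id4 was seen in 10.0% of male and 10.2% of female cells, and Smad6 in 10.9% and 11.1%. Id1, Id2 and Id3 were read in most mesenchyme-like cells, Id3 in 89.9% of male and 89.3% of female ones, at median depths of 4808 and 4829.5 UMIs.

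Endothelium-like cells held little Id2, at 106 CPM in male and 111 CPM in female cells, while Id3 stood at 766 and 842 CPM and Smad7 at 145 and 155 CPM. Id1 in these cells was 463 CPM (interval 437 to 491) in male and 813 CPM (765 to 863) in female cells. Of the UMIs of the 4 Id genes, Id2 made up 7.93% in male and 6.28% in female endothelium-like cells, against 28.0% and 30.5% in mesenchyme-like cells. The 7 mesenchyme markers summed to 2.93% and 3.69% of their mesenchyme level in these cells, and their part in the Id values was not tested.

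Glia- and neural crest-like cells had the highest Id3 of all classes, 1359 CPM (1230 to 1499) in male and 1177 CPM (1089 to 1270) in female cells. Their Id1 was low, at 101 and 162 CPM. Id4, which is expressed in neural lineages, stood at 60.9 CPM (36.1 to 96.2) in male and 47.9 CPM (31.6 to 69.7) in female cells, and Smad6 at 57.5 and 39.1 CPM, the highest of the classes in both libraries. Few UMIs lie behind these values, 18 male and 27 female for Id4 and 17 and 22 for Smad6. Id3 thus made up 75.1% of the Id UMIs in male and 68.6% in female cells of this class, against 42.5% and 40.2% in mesenchyme-like cells.

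In epithelium-like cells Id1 was read at 331 CPM in male and 329 CPM in female cells, Id3 at 621 and 606, Id2 at 196 and 196, and Smad7 at 71.0 and 60.1 CPM. All 4 lay below their free-RNA levels, and the part of free RNA in them was not tested. In the male-only smooth muscle-like cluster Id1 was low at 125 CPM and Id4 high at 52.1 CPM (41.7 to 64.3), on 86 UMIs. The 7 mesenchyme markers summed to 211% of their mesenchyme level in that cluster. Immune-like cells were lowest in Id1, at 39.6 and 74.5 CPM, and in Id3, at 105 and 108 CPM, and had 0 Id4 UMIs in male and 1 in female cells, with upper bounds of 5.04 and 11.5 CPM. Skeletal muscle-like cells had Id1 at 377 and 305 CPM, Id3 at 465 and 471 CPM, and 1 and 2 UMIs of Id4. In erythroid-like cells all 6 members lay below their free-RNA levels in both libraries, and the mesenchyme markers summed to 39.4% and 43.2% of their mesenchyme level.

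**Figure D1:**
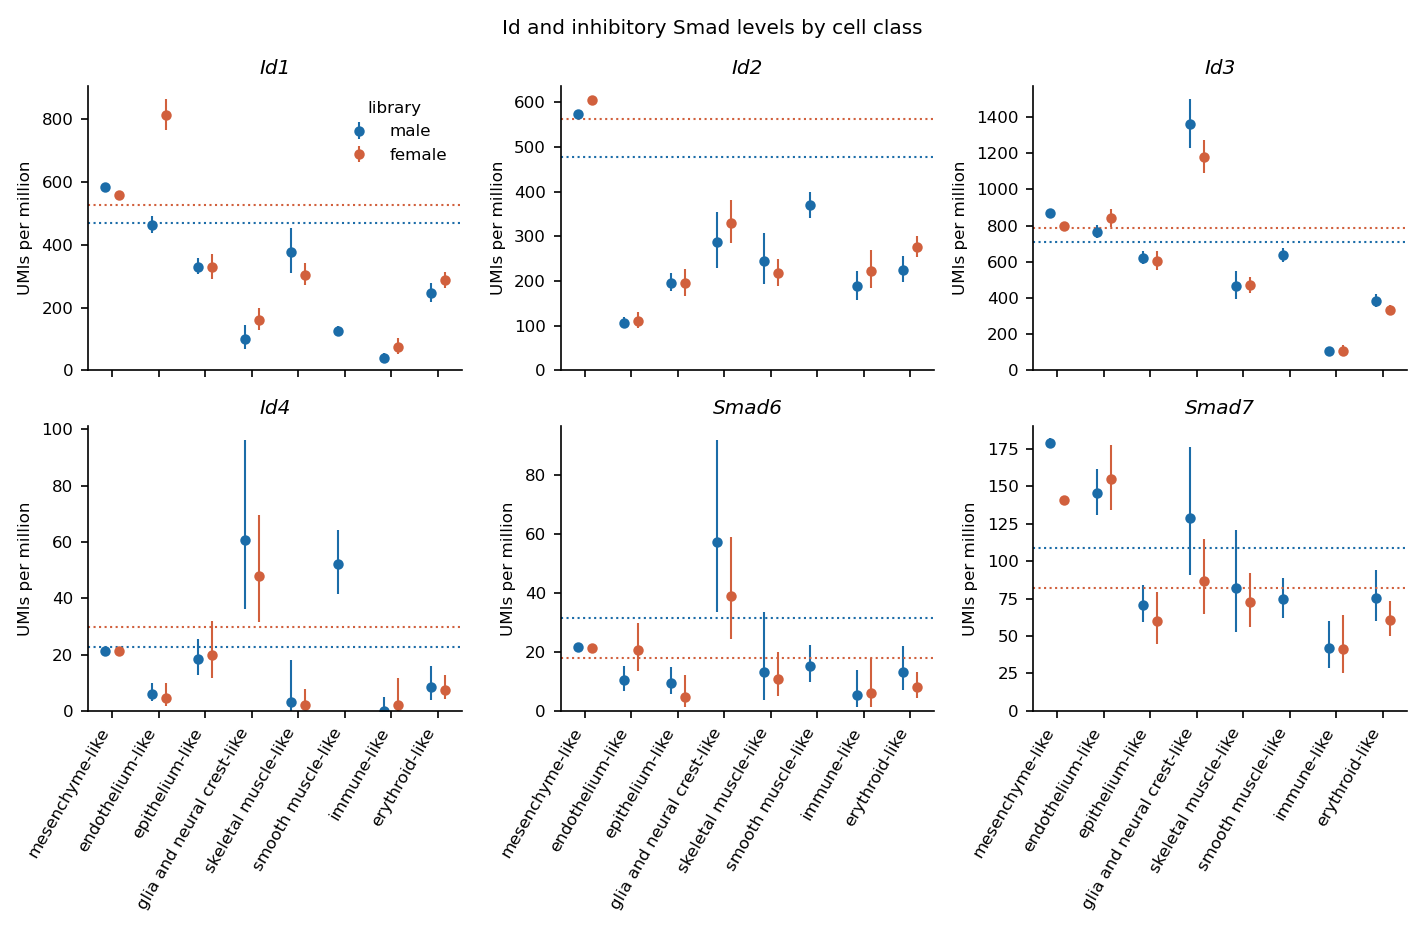
Level of each member (CPM, linear axis from 0) in 8 cell classes, male (blue, left of each pair) and female (orange); bars are exact 95% Poisson intervals of counting error and dotted lines the free-RNA level of each library. Id2 is low in endothelium-like cells (106 CPM male, 111 CPM female), Id3 highest in glia- and neural crest-like cells (1359 and 1177 CPM), and Id1 of endothelium-like cells is 463 CPM in male and 813 CPM in female cells.

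Mesenchyme-, endothelium-, epithelium- and erythroid-like cells numbered at least 50 in both libraries. Among these 4 classes, 3 of 6 members were highest in the mesenchyme in both libraries, namely Id2, Id4 and Smad6. The share of all genes highest there was not measured, so this count only describes the members. Id1 was higher in male mesenchyme (582 CPM, 577 to 588, against 463 CPM, 437 to 491, in endothelium-like cells), whereas in female cells the mesenchyme (558 CPM, 553 to 563) lay below endothelium-like cells (813 CPM, 765 to 863), with no overlap. The intervals of Id4 overlapped with those of epithelium-like cells, and those of Smad6 with female endothelium-like cells (20.6 CPM, 13.6 to 29.9). Id3 was highest in male mesenchyme (870 CPM against 766 CPM in endothelium-like cells), whereas in the female library endothelium-like cells (842 CPM, 793 to 893) and mesenchyme (796 CPM, 790 to 802) had intervals that overlap. Smad7 was likewise higher in male mesenchyme, while the female intervals overlapped, with 155 CPM (134 to 177) in endothelium-like and 141 CPM (139 to 143) in mesenchyme-like cells.

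Within the mesenchyme the members were highest on the whole in 4 clusters, with 2879 male and 2775 female cells, that were grouped by Msx2, Msx1, Dlx2, Runx1 and Dlx5, genes of homeobox and Runt transcription factors. They are called the Msx clusters here. At the other end stood 2 clusters with Sim1, Tbx15, Agtr2 and Igf1, with 1301 male and 1983 female cells. All 6 members were higher in the Msx than in the Sim1 clusters in both libraries. The share of all genes higher in the Msx clusters was not measured. These groups are set side by side as the ends of the members' own levels, so the direction is a description and no test. Msx1, Msx2 and Dlx5, by which the Msx clusters were grouped, are themselves on the list of other BMP targets used below. The genes that correlate with the members stayed among the clustering genes, so the differences between clusters are given as values.

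Smad7 stood at 374 CPM (364 to 383) in male Msx cells and 292 CPM (284 to 300) in female ones, against 70.3 CPM (64.8 to 76.2) and 66.4 CPM (62.1 to 70.9) in the Sim1 clusters. The log2 ratio of Msx over Sim1 level was 2.41 (2.29 to 2.53) in the male and 2.14 (2.03 to 2.24) in the female library, the largest of the 6 in both, with intervals that overlap those of Id4. Id4 had 36.5 CPM in male and 36.2 CPM in female Msx cells, against 7.36 and 8.34 CPM in the Sim1 clusters, or 2.31 (1.93 to 2.71) and 2.12 (1.83 to 2.42) on the log2 scale. The median cell held 4825 male and 5165 female UMIs in the Msx clusters, against 5714 and 5521 in the Sim1 clusters. In the Sim1 clusters all 6 members lay below their free-RNA levels in both libraries, and the part of free RNA there was not tested.

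Id2 was 826 CPM in male and 880 CPM in female Msx cells, against 270 and 289 CPM in the Sim1 clusters, a log2 ratio of 1.61 (1.55 to 1.68) and 1.61 (1.55 to 1.66). Id1 stood at 888 and 892 CPM in Msx cells, against 340 and 357 CPM, with ratios of 1.39 (1.33 to 1.45) and 1.32 (1.28 to 1.37). Id3 had 1308 and 1195 CPM in Msx cells, against 516 and 496 CPM, with 1.34 (1.29 to 1.39) and 1.27 (1.23 to 1.31). Smad6 had 33.4 and 33.2 CPM against 14.0 and 13.9 CPM, with 1.25 (0.96 to 1.55) and 1.26 (1.01 to 1.50). Id1 made up 29.0% of male and 29.7% of female Id UMIs in Msx cells, against 30.0% and 31.0% in the Sim1 clusters, and Id2 made up 27.0% and 29.3%, against 23.8% and 25.1%. In cells thinned to 2000 UMIs, Smad7 was read in 49.9% of male and 41.4% of female Msx cells, against 11.4% and 11.6% of Sim1 cells. Without thinning the shares were 77.5% and 72.6%, against 31.7% and 30.8%.

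The ligand and the antagonist differed in opposite directions between the Msx and the Sim1 clusters. Bmp4 stood at 105 CPM in male and 104 CPM in female Msx cells, against 19.95 and 17.4 CPM in the Sim1 clusters. Grem1 stood at 3.55 and 7.46 CPM in Msx cells, against 82.4 and 138 CPM in the Sim1 clusters. Summed levels of 8 mitosis genes were 3347 and 3663 CPM in Msx cells and 2615 and 2387 CPM in the Sim1 clusters, and those of 10 immediate early and heat shock genes 1787 and 1729 CPM against 1116 and 1288 CPM. Their part in the members' values was not tested.

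The members did not all rank alike over the remaining clusters. Cluster 12, led by Mab21l2 and Krt18, had high Id3 (1357 CPM male, 1074 CPM female) and the highest male Smad6 (49.2 CPM), with Id1 at 595 and 411 CPM, around the cluster medians of 545 and 526 CPM. Cluster 17, led by Hdc, Vegfd and Lhx8, was high in Id1 (850 and 950 CPM) and Smad7 (302 and 253 CPM). The Rprm clusters had 686 and 633 CPM of Id1 and 182 and 143 CPM of Smad7. The Scx and Sox9 cluster, with genes of tendon and cartilage, had Id4 at 24.1 and 26.0 CPM but Smad7 at only 81.8 and 88.1 CPM. Over the 19 clusters the ratio of highest to lowest level was 8.12-fold in the male and 8.23-fold in the female library for Smad7, 6.82- and 6.90-fold for Id4, 4.96- and 4.27-fold for Id2, 4.28- and 4.17-fold for Smad6, 3.43- and 3.13-fold for Id3, and 3.02- and 2.96-fold for Id1.

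**Figure D2:**
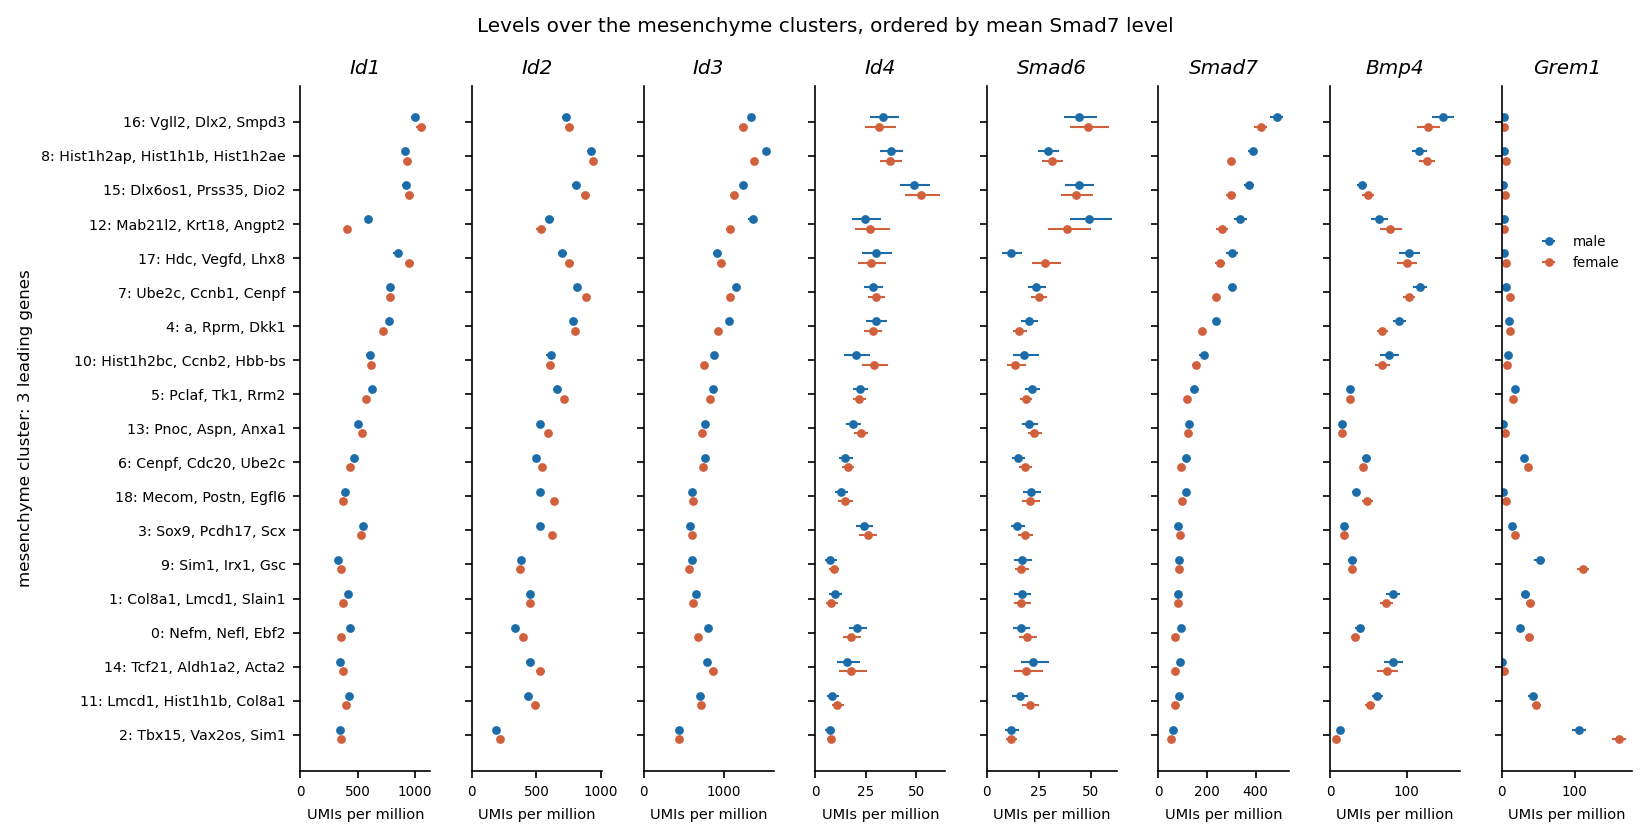
Levels of the 6 members, Bmp4 and Grem1 (CPM, linear axes from 0) in 19 mesenchyme clusters, male (blue, upper of each pair) and female (orange), with exact 95% Poisson intervals; each cluster is named by its number and 3 leading genes. Smad7 runs from 486 CPM male and 420 CPM female in cluster 16 down to 59.9 and 51.0 CPM in cluster 2, where Grem1 is highest at 106 and 161 CPM.

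The cluster profiles were alike in both libraries, with Pearson's r of log2(CPM + 1) between male and female of 0.988 for Smad7, 0.979 for Id2, 0.973 for Id3, 0.967 for Id4, 0.958 for Id1 and 0.798 for Smad6. Smad6 is counted in few UMIs, and in cluster 17 it had 26 UMIs in male and 67 in female cells, or 11.5 and 27.9 CPM. Smad7 and Id3 had an r of 0.928 in male and 0.884 in female clusters, Smad7 and Id1 0.919 and 0.874, and Smad6 and Id1 only 0.522 and 0.606. Against Bmp4 the 6 members had r between 0.351 (Smad6) and 0.685 (Id3) in the male and between 0.453 (Id4) and 0.774 (Id3) in the female library, and against Grem1 between -0.531 and -0.695 and between -0.569 and -0.768. These are descriptions over 19 points that share their library and their clustering.

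Among 6031 genes with at least 20 CPM in both libraries, the gene whose cluster profile was most like that of Smad7 was Bambi, a decoy receptor that is itself a BMP target (r = 0.979 over 19 clusters, mean profile of both libraries), and Msx2 was the third at 0.974. Sp9, a zinc-finger factor of outgrowing tips, was most like Id1 (0.934), ahead of Sgip1 (0.912) and Dlx6 (0.907). The T-box factor Tbx3 was most like Id3 (0.952). Snai1, a zinc-finger repressor, was most like both Id2 (0.908) and Id4 (0.910). Gse1 (0.900) and Skil (0.894), which encodes an inhibitor of SMAD complexes, were the most like Smad6.

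Cells were then divided by whether a Bmp4 UMI was present. A Bmp4 UMI was found in 3065 of 14186 male (21.6%) and 3183 of 15386 female (20.7%) mesenchyme-like cells. In immune-like cells, at median depths of 10704 and 11504 UMIs, 6.25% of male and 4.88% of female cells had one, although the class should lack it. In erythroid-like cells, which should lack it too and whose medians were 7908 and 8409.5 UMIs, the shares were 16% and 14.2%, though the mesenchyme markers there summed to 39.4% and 43.2% of their mesenchyme level. Cells with a Bmp4 UMI were deeper, with medians of 5325 male and 5638 female UMIs, against 4708 and 4672 in cells without. In male cells 36.6% and in female cells 37.5% of the Msx clusters had one, against 8.84% and 8.72% of the Sim1 clusters. With each cell thinned to 2000 UMIs, the shares were 17.7% and 16.5% in Msx cells, 3.31% and 2.72% in the Sim1 clusters, and 8.8% and 5.19% in erythroid-like cells. No endothelium-like cell had one then, of 134 male and 79 female cells, which allows shares of up to 2.24% and 3.80%. A cell with 1 Bmp4 UMI need not have expressed the gene.

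With all mesenchyme-like cells pooled, Smad7, Id3, Id2 and Id1 were higher in cells with Bmp4 in both libraries, with intervals above 0. Smad7 was 233 CPM in male and 183 CPM in female cells with Bmp4, against 161 and 127 CPM without, a log2 ratio of 0.53 (0.48 to 0.58) in the male and 0.53 (0.47 to 0.58) in the female library. Id3 followed with 0.24 and 0.26, Id2 with 0.19 and 0.21 and Id1 with 0.11 and 0.07. Smad6 had 0.10 (-0.06 to 0.26) and 0.22 (0.07 to 0.37), and Id4 0.15 (-0.01 to 0.31) and 0.00 (-0.15 to 0.15). All 6 members were at or above 0.1 in the male library, where 19.0% of 9868 genes were, and 4 of 6 in the female library, where 18.5% of 10124 genes were. This contrast mixes clusters that differ in both Bmp4 and the members.

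When each cell with Bmp4 was set against the cells of its own cluster and library, every member had a lower ratio than with clusters pooled. The sign turned for Id1, Id2 and Id4 in both libraries, and for Id3 and Smad6 in the male library only. Of these, only Id1 had its interval below 0 in both libraries. Id1 was observed at 11901 UMIs in male cells with Bmp4, against 13113 expected from the cells without, and at 13059 against 14555 in female cells. The log2 ratios were -0.14 (-0.17 to -0.11) in the male and -0.16 (-0.19 to -0.13) in the female library, both below 0. Across clusters with at least 50 cells with Bmp4, Id1 lay below 0 in 11 of 18 male and 14 of 19 female clusters, with the whole interval below 0 in 8 and 10, and above 0 in 3 and 2. The lowest values were in cluster 0 in the female library (-1.01, -1.28 to -0.75) and in cluster 11 in the male library (-0.46, -0.62 to -0.31). In cells with at least 2 Bmp4 UMIs the Id1 ratio was -0.27 (-0.32 to -0.22) in the male and -0.23 (-0.28 to -0.18) in the female library.

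Smad7 had a ratio of 0.04 (-0.02 to 0.09) in the male and 0.13 (0.07 to 0.19) in the female library, Id3 -0.02 (-0.05 to 0.00) and 0.02 (-0.01 to 0.04), and Id2 -0.07 (-0.10 to -0.04) and -0.01 (-0.04 to 0.02). Id4 was at -0.10 (-0.28 to 0.07) and -0.26 (-0.43 to -0.10), and Smad6 at -0.10 (-0.27 to 0.07) and 0.07 (-0.09 to 0.22). These totals join clusters that went both ways. Smad7 had its whole interval above 0 in 6 male and 7 female clusters and below 0 in 1 and 2, with cluster values between -0.34 and 1.10 in male and between -0.57 and 0.77 in female cells. Id3 had it above 0 in 5 and 6 clusters and below 0 in 6 and 6 (-0.24 to 0.35 and -0.61 to 0.43), and Id2 above 0 in 3 and 5 and below 0 in 3 and 6 (-0.37 to 0.73 and -0.49 to 0.65). In cluster 9, one of the Sim1 clusters, Smad7 was at 1.10 (0.74 to 1.45) in male and 0.58 (0.31 to 0.85) in female cells with Bmp4. The former is the highest of the male clusters. Bmp4 itself stood at 28.4 CPM in male and 28.5 CPM in female cells of cluster 9, below its free-RNA levels of 49.0 and 43.9 CPM. The part of free RNA in this marking was not tested. Id4 had the interval above 0 in 1 and 1 clusters and below 0 in 1 and 4, and Smad6 in none. Both genes rest on few UMIs in many of these clusters. At or below -0.1 lay 3 of 6 members in the male library, against 17.6% of 9766 genes, and 2 of 6 in the female library, against 16.9% of 10052 genes. At or above 0.1 lay no member in the male library (15.2% of genes) and Smad7 in the female library (15.4%).

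Grem1 was found in 1047 of 14186 male (7.38%) and 1696 of 15386 female (11.02%) mesenchyme-like cells, and in 28.7% of male and 39.0% of female Sim1 cells, against 1.84% and 3.46% of Msx cells. The share in endothelium-like cells, at median depths of 13568.5 and 11332 UMIs, was 2.24% and 2.53%, and in erythroid-like cells 4% and 10.4%. With each cell thinned to 2000 UMIs, the shares were 0.80% and 1.26% in Msx cells, 13.8% and 20.4% in Sim1 cells and 1.6% and 2.83% in erythroid-like cells. No endothelium-like cell had one then, which allows shares of up to 2.24% and 3.80%, above those of Msx cells, so Grem1 in Msx cells cannot be told from background at this number of cells. Cells with Grem1 held medians of 5995 male and 6101 female UMIs, against 4731 and 4699.5 in cells without.

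Pooled over clusters, all 6 members were lower in cells with Grem1 in both libraries. Smad7 stood at 106 CPM in male and 91.4 CPM in female cells with Grem1, against 186 and 150 CPM without, with log2 ratios of -0.82 (-0.92 to -0.71) and -0.71 (-0.80 to -0.63). Id4 had -0.84 and -0.56, Id2 -0.46 and -0.57, Smad6 -0.53 and -0.38, Id3 -0.38 and -0.41, and Id1 -0.20 and -0.27. All 6 were at or below -0.1, where 24.6% of 7282 genes in male and 22% of 9004 genes in female cells were.

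Within clusters, Id1 was instead higher in cells with Grem1. It was observed at 3662 UMIs in male cells with Grem1, against 3215 expected, and at 6341 against 5730 in female cells, log2 ratios of 0.19 (0.14 to 0.24) and 0.15 (0.10 to 0.19). Id1 was above 0 in 8 of 8 male and 9 of 10 female clusters with at least 50 cells with Grem1, with the whole interval above 0 in 4 and 4. In cluster 2, which held the largest number of cells with Grem1 (288 male and 555 female), it was 0.07 (-0.08 to 0.22) in the male and 0.00 (-0.11 to 0.11) in the female library, and both intervals include 0. Without the 7 mesenchyme clusters with the highest summed mitosis genes, a setting added after the data had been seen, it was 0.16 (0.08 to 0.24) and 0.09 (0.03 to 0.16). These 7 include cluster 9, with 86 male and 219 female cells with Grem1, whose 10 leading genes are Sim1 and others outside the cell cycle lists and whose mitosis genes summed to 5674 and 4971 CPM.

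Id2 had -0.03 (-0.08 to 0.03) in the male and -0.12 (-0.16 to -0.08) in the female library with Grem1, and Id3 -0.02 (-0.07 to 0.02) and -0.09 (-0.12 to -0.05). Smad7 was at -0.03 (-0.14 to 0.09) and -0.05 (-0.15 to 0.04), Smad6 at -0.09 (-0.40 to 0.21) and -0.08 (-0.31 to 0.14), and Id4 at -0.17 (-0.51 to 0.16) and 0.12 (-0.11 to 0.35). Here too clusters went both ways. Id2 with Grem1 was at -1.07 (-1.33 to -0.83) in male and -0.56 (-0.69 to -0.43) in female cells of cluster 9, but at 0.38 (0.23 to 0.52) and 0.24 (0.11 to 0.37) in cluster 11. Its whole interval was above 0 in 1 of 8 male and 3 of 10 female clusters and below 0 in 2 and 5. Id3 had the interval below 0 in 0 and 5 clusters and above 0 in none, and Smad7 above 0 in 1 and 0 and below 0 in none. At or above 0.1 were 1 of 6 members in the male (21.6% of 7262 genes) and 2 of 6 in the female library (23.3% of 8989 genes), and at or below -0.1 were 1 of 6 in each (21.6% and 19.1% of genes). These shares are near those of all genes. The values of Smad6 and Id4 rest on 110 and 89 male UMIs and have intervals wider than the Id1 difference.

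**Figure D3:**
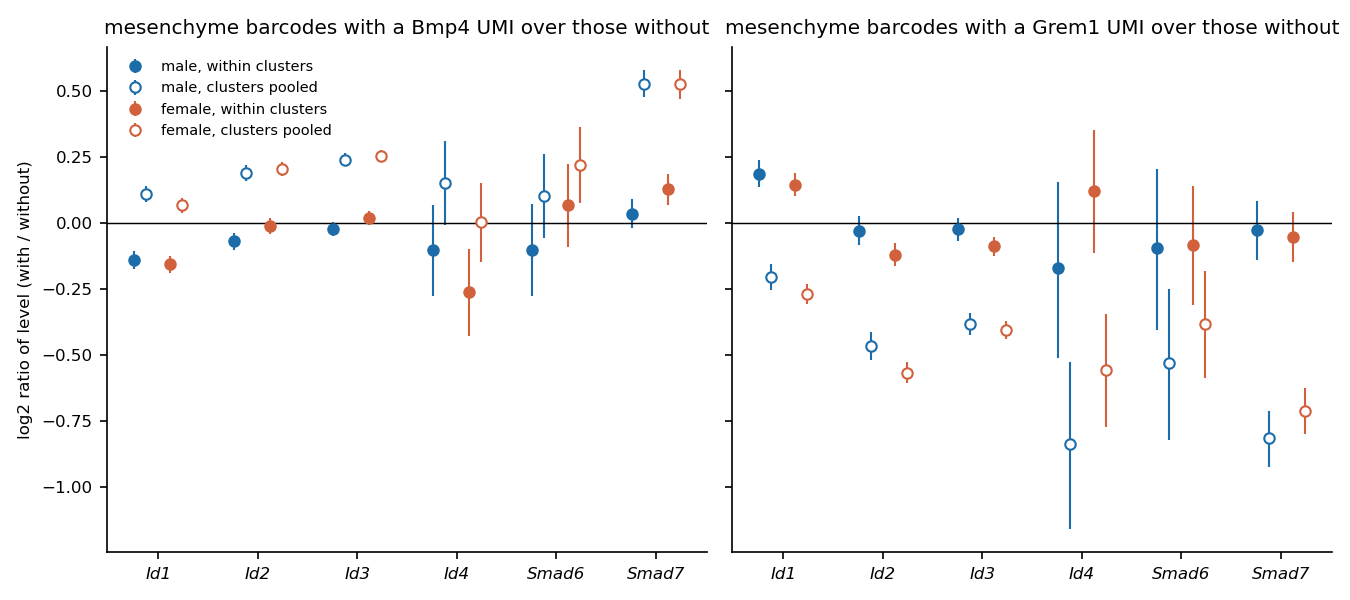
Log2 ratio of member level in mesenchyme-like cells with a Bmp4 UMI (left panel) or a Grem1 UMI (right panel) over cells without, male (blue) and female (orange); filled points compare cells within clusters, open points pool all clusters, and bars are exact 95% intervals of counting error. Within clusters Id1 is at -0.14 male and -0.16 female with Bmp4 and at 0.19 and 0.15 with Grem1, each on the other side of 0 from its pooled value.

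The rest of the BMP pathway was described from lists of its genes by the same contrast within clusters. Of 9 other BMP targets that could be measured, 5 were at or above 0.1 with Bmp4 in both libraries, as were 6.17% of 9732 genes, and none was at or below -0.1, as were 6.87%. Msx1, a homeobox target of BMP signalling, had ratios of 0.29 (0.26 to 0.33) in the male and 0.43 (0.39 to 0.46) in the female library, the Notch and BMP target Hey1 0.27 and 0.51, and the zinc-finger factor Gata3 0.16 and 0.40. In the same cells Id1 was below 0. Msx1, Msx2 and Dlx5 of this list were among the genes that define the Msx clusters. The values and counts of the list, also those with Grem1 below, are therefore a description.

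With Grem1, 5 of 6 measurable other targets were at or below -0.1 in both libraries, as were 9.05% of 7258 genes, and none was at or above 0.1, as were 9.63%. Msx1 was at -0.61 (-0.72 to -0.50) in the male and -0.58 (-0.66 to -0.50) in the female library. Of the mitosis list 7 of 8 genes were at or below -0.1 in both libraries with Grem1, and 1 of 8 with Bmp4. Of the 6 members only Id1 was at or above 0.1 with Grem1 in both libraries. The part of the mitosis genes in this was not tested, beside the value without mitosis-rich clusters given above.

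Of 6 measurable ligands 3 were at or above 0.1 with Bmp4 in both libraries and 1 at or below -0.1, and of 7 antagonists 2 and 2, beside 6.17% of all genes above and 6.87% below. The ligand gene Bmp7 was at 0.26 (0.11 to 0.41) in male and 0.39 (0.25 to 0.52) in female cells with Bmp4. Nbl1, which encodes an antagonist of the DAN family, was at 0.24 and 0.22 with Bmp4 and at 0.34 and 0.30 with Grem1. Sostdc1, another secreted antagonist, was at -0.17 and -0.22 with Bmp4 and at 1.28 (1.14 to 1.41) and 1.41 (1.30 to 1.53) with Grem1. Of 7 measurable receptors none was at or above 0.1 with Bmp4 in both libraries and 1 at or below -0.1, and of 8 transducers none in either direction, against the same shares of all genes. Smad1, which carries the BMP signal, was at 0.42 (0.27 to 0.57) in male and 0.28 (0.17 to 0.40) in female cells with Grem1.

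Of the 3 E protein genes 2 were at or above 0.1 with Grem1 in both libraries, beside 9.63% of all genes. Tcf4 was at 0.46 (0.43 to 0.50) in the male and 0.42 (0.40 to 0.45) in the female library, Tcf12 at 0.25 (0.18 to 0.31) and 0.23 (0.18 to 0.28), and Tcf3 at 0.12 (0.04 to 0.20) and -0.04 (-0.11 to 0.03). With Bmp4 none of the 3 was at or above 0.1 or at or below -0.1 in both libraries. Of 4 measurable genes of TGF-beta response, 2 were at or below -0.1 with Grem1 in both libraries, beside 9.05% of all genes, among them Tgfbi at -0.71 and -0.62.

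The members were then compared with each other in single cells, a contrast that was added after the data had been seen. Smad7 UMIs were found in 6971 male (49.1%) and 6911 female (44.9%) mesenchyme-like cells. Within clusters, cells with Smad7 had Id1 at a log2 ratio of 0.52 (0.49 to 0.56) in the male and 0.45 (0.42 to 0.49) in the female library, Id2 at 0.41 and 0.34, and Id3 at 0.30 and 0.24. Id4 was at 0.47 (0.28 to 0.66) and 0.43 (0.27 to 0.60), and Smad6 at 0.24 (0.06 to 0.42) and 0.27 (0.11 to 0.42). All 5 were at or above 0.1 in both libraries, where 20% of 11089 male and 19.2% of 11198 female genes were. Bmp4 was at 0.10 (-0.01 to 0.21) in male and 0.24 (0.14 to 0.35) in female cells with Smad7. Grem1 was at -0.13 (-0.29 to 0.03) and 0.04 (-0.07 to 0.16).

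Cells with Id4, 1424 male and 1575 female, had Id1 at 0.41 (0.37 to 0.44) in the male and 0.43 (0.39 to 0.46) in the female library, Id2 at 0.36 and 0.39, Id3 at 0.23 and 0.27, Smad7 at 0.31 and 0.32 and Smad6 at 0.22 and 0.24. All 5 were at or above 0.1 in both, beside 19.7% and 21.4% of genes. Bmp4 itself was at -0.10 (-0.23 to 0.03) and -0.04 (-0.16 to 0.09) in these cells, and Grem1 at -0.25 (-0.55 to 0.03) and -0.04 (-0.22 to 0.13). In cells with Id4 the interval of each includes 0, whereas those of the 5 members do not. This did not hold for female Bmp4 in cells with Smad7, whose interval lay above 0.

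Smad6 gave smaller ratios. In 1551 male and 1709 female cells with Smad6, Id1 was at 0.11 (0.07 to 0.14) in the male and 0.09 (0.05 to 0.12) in the female library, Id2 at 0.08 and 0.09, Id3 at 0.06 and 0.11, Id4 at 0.18 (-0.02 to 0.37) and 0.14 (-0.04 to 0.32), and Smad7 at 0.18 and 0.12. In each library 3 of 5 were at or above 0.1, beside 17.5% of male and 17.8% of female genes. Cells with a member UMI were deeper than those without, with medians of 5050 male and 5242 female UMIs against 4636 and 4579 for Smad7, and what depth adds to these ratios was not tested.

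**Figure D4:**
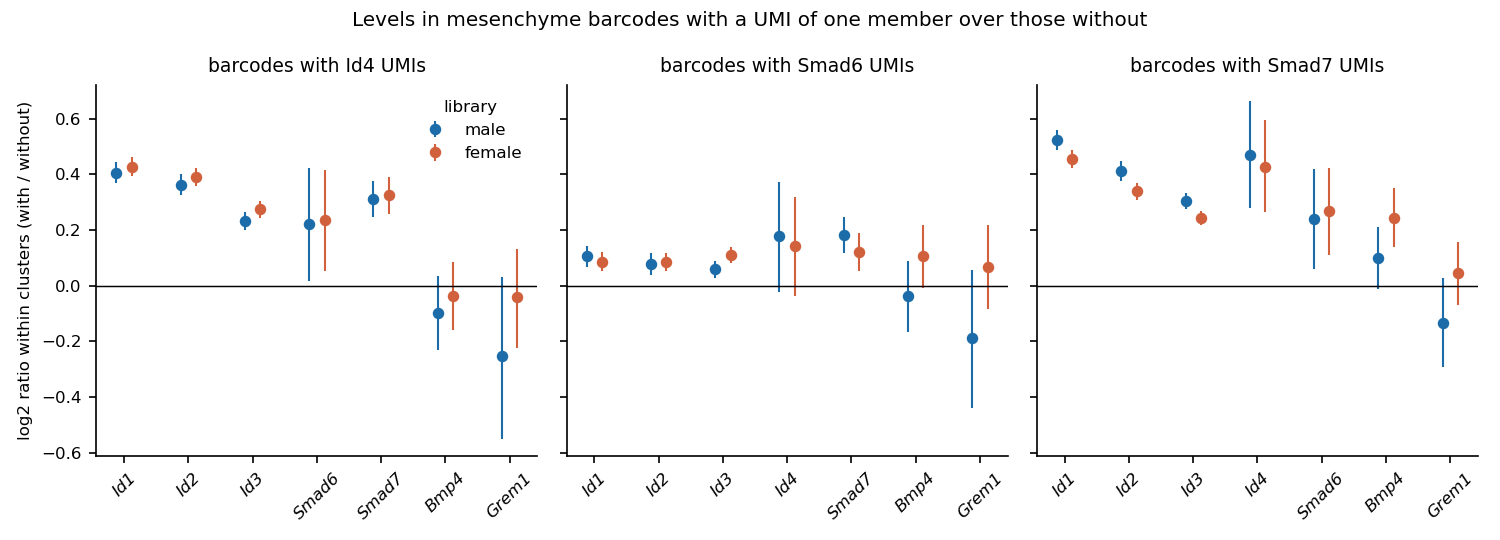
Log2 ratio within clusters of the level in mesenchyme-like cells with a UMI of Id4 (left), Smad6 (middle) or Smad7 (right) over cells without, for the other members, Bmp4 and Grem1; male blue, female orange, bars exact 95% intervals of counting error. The other members lie above 0 in all 3 panels, Id1 at 0.52 male and 0.45 female with Smad7, while Bmp4 is at 0.10 and 0.24 and Grem1 at -0.13 and 0.04 with Smad7.

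Male and female levels were compared last, as the ratio of the male over the female library. In the mesenchyme-like cells Smad7 was higher in the male library, at 179 CPM against 141 CPM in the female one, a log2 ratio of 0.34 (0.31 to 0.38). Id3 was 870 CPM in male and 796 CPM in female cells, a ratio of 0.13 (0.11 to 0.14). Id2 lay on the other side, at 573 and 605 CPM and -0.08 (-0.10 to -0.06), and Id1 was at 0.06 (0.04 to 0.08). Id4 at 0.00 (-0.10 to 0.09) and Smad6 at 0.02 (-0.08 to 0.11) had intervals that include 0, and a difference was not detectable at this depth. Of the 6 members 2 were at or above 0.1, as were 22.2% of 13085 genes, and none at or below -0.1, as were 29.4%.

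Smad7 was higher in male cells in 7 of 8 named domains, with intervals that do not overlap in 5. The Scx and Sox9 domain went the other way (81.8 CPM in male and 88.1 CPM in female cells), and its intervals overlap, as do those of the Sim1 (70.3 and 66.4 CPM) and Ogn domains (127 and 121 CPM). The ratio was above 0 in 16 of 19 clusters, with the whole interval above 0 in 14, and the median over clusters was 0.27 (range -0.11 to 0.46). In cluster 0 Smad7 had 92.5 CPM in male and 67.1 CPM in female cells, and in cluster 4 237 and 179 CPM. Id2 was below 0 in 16 clusters, with the interval below 0 in 12 and above 0 in 1. Id3 was above 0 in 14 clusters, with the interval above 0 in 11 and below 0 in 1. Id1 was above 0 in 10 and below 0 in 9 clusters, with the interval above 0 in 7 and below 0 in 3. Male sums were also set against those expected from the female level of each cluster, weighted by the male UMIs of that cluster. Smad7 was then at 0.27 (0.23 to 0.30), Id3 at 0.09 (0.08 to 0.11) and Id2 at -0.11 (-0.13 to -0.09).

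**Figure D5:**
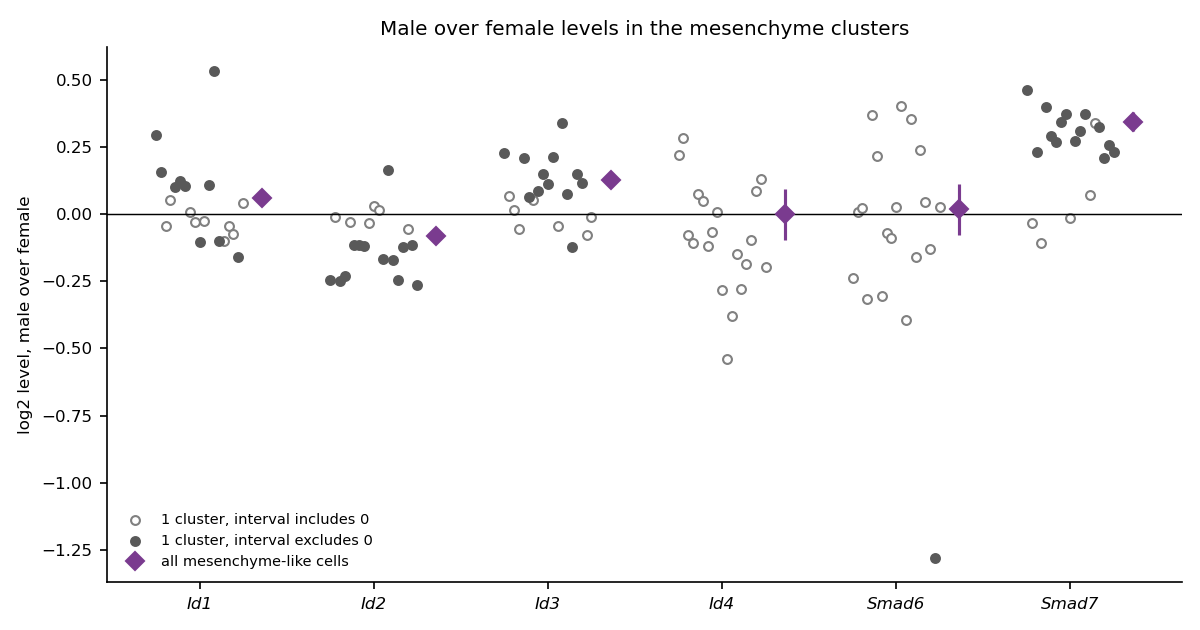
Log2 ratio of male over female level of each member in 19 mesenchyme clusters (circles, filled where the exact 95% interval of counting error excludes 0) and in all mesenchyme-like cells (diamonds with their interval). Smad7 is above 0 in 16 clusters and 0.34 in all cells, Id2 is below 0 in 16 clusters and -0.08 in all cells, and the Smad6 point at -1.28 is cluster 17 with 26 male and 67 female UMIs.

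The genes around the members also differed between the libraries. Grem1 was 20.9 CPM in male and 35.8 CPM in female mesenchyme, a log2 ratio of -0.78 (-0.86 to -0.69), and Bmp4 was 57.7 and 51.3 CPM, a ratio of 0.17 (0.11 to 0.23). The Sim1 clusters, where Grem1 is highest, held fewer male than female cells (1301 and 1983). With female levels weighted by the male UMIs of each cluster, the ratios were -0.53 for Grem1 and 0.08 for Bmp4. Of 10 other BMP targets 5 were at or above 0.1 and 1 at or below -0.1, with a median of 0.13, against -0.02 over all genes, of which 22.2% were above and 29.4% below these limits. Of 10 receptors 2 were at or above 0.1 and 7 at or below -0.1, with a median of -0.18, and of 8 transducers 5 were at or below -0.1. The E protein genes Tcf4 and Tcf12 were at -0.29 and -0.25. With 1 pool per sex, sex, litter and library cannot be told apart in any of these values.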

How the data were processed

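Per the labels, each library was made with a droplet kit for 3′ gene expression. The authors deposited raw UMI counts of every gene in 6794880 listed barcodes, not normalized. Cell Ranger 3.1 and mm10 are named per the submitters' processing notes, and the annotation version is not given in the sources used here. In all, the male library held 130105692 UMIs and the female library 144515562.

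Barcodes with 2000 UMIs or more, 500 genes or more and at most 10% mitochondrial UMIs were used. Scrublet (scanpy 1.11.5) marked 0% at its own threshold and so had not worked, so the barcodes with the highest scores, 0.8% per 1000 cells, were dropped (2382 male, 2801 female), and doublets of like cells remain. Counts scaled to 10000 per cell were clustered on 1985 variable genes (30 components, 15 neighbours, Leiden resolution 1), without the members, Bmp4 and Grem1, of which 7 of 8 had been among the 2000 most variable. A cluster was named where its markers averaged a log2 fold of 2 or more and 3 were detected. Of the rest, those with 4 or more of the mesenchyme markers at 50 CPM or more were called mesenchyme-like, and put in a domain at a mean log2 fold of 1 or more.

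Contrasts summed UMIs of marked cells over those expected from unmarked cells of the same cluster and library. Shares of all genes and of lists used genes with an expected count of at least 100. Values of single clusters needed 50 marked cells but no such count. In female cluster 2 with Bmp4, for example, 2.59 UMIs of Id4 and 4.08 of Smad6 were expected. A log2 ratio past 0.1 in either direction was counted, and no test was made, since the labels give 1 pool per sex. Named genes of each list had at least 20 CPM and the largest mean Bmp4 contrast. Members and lists were chosen with earlier results of these data known. The contrast was tested on simulated Poisson counts, with rates that did not vary among like-marked cells of a cluster. Such data cannot show whether the intervals hold where cells of a cluster vary more than that. Of the gene IDs 30934 matched GENCODE M21. Promoter windows came from RefSeq (GRCm38.p6). Alternatives varied limits, doublets, totals, depth, clustering and the marking of cells.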

Additional observations from a re-analysis of the deposited data

Results flagged for a closer look

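In 3 places the male over female ratio of a member lay on the other side of 0 from its mesenchyme value, with both intervals excluding 0. In each case all counts come from 1 library per sex, and the difference between classes was not tested. Opposite signs where an interval includes 0 were not counted. Among them was endothelium-like Smad6 at -0.97 (-1.81 to -0.14), on 26 male and 27 female UMIs, against 0.02 (-0.08 to 0.11) in mesenchyme-like cells. Id1 in endothelium-like cells had a log2 ratio of -0.81 (-0.93 to -0.69), on 1149 male and 1067 female UMIs, whereas mesenchyme-like cells had 0.06. With each cell thinned to 2000 UMIs it was -0.39 (-0.74 to -0.03), and Id1 was then read in 44.8% of male and 60.8% of female endothelium-like cells. Id3 in endothelium-like cells had -0.14 (-0.25 to -0.03), against 0.13 in mesenchyme-like cells, and 0.10 (-0.23 to 0.43) after thinning. At a limit of 5% mitochondrial UMIs, which left 14 male and 10 female endothelium-like cells, both ratios were above 0, at 1.37 (0.68 to 2.14) for Id1 and 0.68 (0.26 to 1.11) for Id3. Id1 in erythroid-like cells had -0.22 (-0.44 to -0.00), at 246 CPM in male and 287 CPM in female cells, both below the free-RNA levels of 469 and 525 CPM. Summed immediate early and heat shock genes stood at 3074 CPM in male and 3326 CPM in female endothelium-like cells, and their part in these values was not tested.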

How the results depend on the processing

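No paired analysis was possible because each sex has 1 library and the shared replicate number joins no test, and for the same reason no library could be left out. All 6 members stayed higher in the Msx than in the Sim1 clusters under each of the 7 alternatives run. These groups are the ends of the members' own levels in the same cells, so this too is a description. The count highest in mesenchyme was 3 and became 1 at a limit of 5% mitochondrial UMIs, which left 813 male and 689 female mesenchyme-like and 14 and 10 endothelium-like cells. At that limit the log2 ratio of mesenchyme over endothelium was -0.14 (Id1 male), 1.29 (Id1 female), -0.36 (Id3 male) and -0.027 (Smad7 male). The male over female ratio in endothelium-like cells was then 1.37 for Id1 and 0.68 for Id3 (0.10 for Id3 after thinning). The count of members past 0.1 between the sexes in either direction was 4, against 2 in the main setting. There 22.2% of genes were at or above 0.1 and 29.4% at or below -0.1. The shares of all genes at the 5% limit were not measured. The number of members below 0 in both libraries with Bmp4 was 3, and 0 without standardisation for cluster. The share of all genes below 0 in both libraries was not measured, here or for the Grem1 count that follows. Unstandardised, Id1 had 0.11 male and 0.068 female, Id4 0.15 and 0.0042, and male Smad6 0.10. Male Smad6 with Bmp4 was 0.33 at 5% mitochondrial UMIs and 0.31 after thinning, and male Id4 0.094 without the 7 mitosis-rich clusters. The number below 0 in both libraries with Grem1 was 4. It was 2 at 5% mitochondrial UMIs, 2 with all barcodes kept, 2 with bins of UMI depth added, 0 at Leiden resolution 2 and 0 with the members among the clustering genes. Unstandardised Id1 with Grem1 was -0.20 male and -0.27 female. Male Id4 with Grem1 was 0.98 at 5% mitochondrial UMIs and 0.0365 at resolution 2, female Id2 0.0225 at resolution 2, and female Id4 -0.14 at 5%, -0.042 with all barcodes kept, -0.34 for 2 UMIs and -0.56 unstandardised. The causes were not tested. Apart from the unstandardised values, Id1 stayed below 0 with Bmp4 (-0.27 to -0.06) and above 0 with Grem1 (0.09 to 0.41) in both libraries under every alternative run, although the Bmp4 intervals at 5% mitochondrial UMIs include 0. Female Id4 of mesenchyme over endothelium has no value at 5% mitochondrial UMIs or after thinning, since no endothelial UMI was left. Few UMIs limit Id4 and Smad6 throughout.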
